A study of Mus musculus with 20 samples.

Results

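The Toll-like receptor genes Tlr1, Tlr2, Tlr3, Tlr4, Tlr5, Tlr6, Tlr7, Tlr8, Tlr9 and Tlr13 were followed in the mouse colon during dextran sulphate sodium (DSS) colitis. They were taken by name, each had 1 probe set on the array, and they were 10 of the 21423 gene symbols measured. All 10 passed the filter on dim probe sets, although Tlr7 was over the filter level on 18 of 20 arrays and Tlr8 on 19. RNA of the middle colon of 20 female mice of the strain C57BL/6JOlaHsd, aged about 11 weeks, was hybridised to 1 Affymetrix array per mouse, with 4 mice in each of 5 groups. In all 3 colitis groups, 3% DSS, a sulphated sugar polymer toxic to the lining of the colon, was in the drinking water for 5 days. Cyclosporine colitis mice also took cyclosporine A, an immunosuppressant that acts on T cells through calcineurin, in a daily oral dose of 25 mg/kg from day 1 to day 15. Probiotic colitis mice were given the strains L930BB and IM386 by stomach tube before and during DSS. Untreated colitis mice received saline instead. Of the healthy groups, which had no DSS, one was given the same probiotic and the other, called untreated, saline. No healthy mice took cyclosporine and its methocel vehicle had no group of its own, so drug and vehicle cannot be told apart.

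Toll-like receptors are membrane proteins of innate immunity that bind molecules shared by many microbes. Tlr2 pairs with Tlr1 or Tlr6 at the cell surface to bind bacterial lipopeptides, Tlr4 binds lipopolysaccharide with its partner Ly96, and Tlr5 binds flagellin, the protein of bacterial flagella. Tlr3, Tlr7, Tlr8, Tlr9 and Tlr13 sit in endosomes, where Tlr3 senses double-stranded RNA, Tlr7 single-stranded RNA, Tlr9 unmethylated CpG DNA and Tlr13 bacterial ribosomal RNA, while mouse Tlr8 is a close relative of Tlr7. Most signal through the adaptor Myd88 to NF-kB, and Tlr3 signals through Ticam1. In the gut both leukocytes of the lamina propria and epithelial cells carry such receptors, and which cell type a change belongs to is not visible in RNA of whole tissue.

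Values are log2 expression, and a change is a difference of group means on that scale. Epithelial markers were high on every array, Epcam between 11.83 and 12.14 and Cdh1 between 11.91 and 12.34, as fits a colon label. The leukocyte gene Ptprc ranged from 7.82 to 11.08. The mean of 16 pan-leukocyte markers was 7.89 ± 0.37 in cyclosporine colitis, 9.30 ± 0.31 in probiotic colitis, 8.64 ± 0.60 in untreated colitis, 7.46 ± 0.11 in probiotic healthy and 7.31 ± 0.10 in untreated healthy mice (SD, n = 4 each). The mean of 18 pan-epithelial markers moved far less and lay between 10.58 and 10.91 on all 20 arrays. In bulk tissue, fewer cells of a type and less RNA per cell cannot be told apart. 3 arrays were also left out together, those of probiotic colitis mouse 8, untreated colitis mouse 6 and untreated healthy mouse 2. They are called the 3 arrays that stand apart, a name that rests on no test given here. The 2 colitis mice had the lowest pan-leukocyte means of their groups (8.83 and 7.91), so leaving them out raises that mean in both groups. The healthy mouse had the highest of its group (7.45). Calls that change without all 3 are given beside the result.

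The promoters of 5 of the receptors are shown. Tlr8, Tlr13 and Tlr9 moved together with leukocyte markers, while Tlr5 and Tlr2 were the receptors called in opposite directions under cyclosporine. Tlr2, Tlr6 and Tlr7 also passed with the leukocyte mean over the colitis arrays. Of the 10 genes, 8 were matched to RefSeq promoter windows of GRCm38.p6, each from 250 bases before to 50 bases after a start, 10 windows in all. Tlr4 and Tlr7 are not shown. The windows are chr1:182954538-182954837 on the plus strand for Tlr5, chr3:83841559-83841858 on the minus strand for Tlr2, chrX:167264280-167264579 on the minus strand for Tlr8, chrX:106143025-106143324 on the plus strand for Tlr13 and chr9:106222348-106222647 on the plus strand for Tlr9. All are written 5′ to 3′, with matches to the exact spellings searched in capitals.
Tlr5: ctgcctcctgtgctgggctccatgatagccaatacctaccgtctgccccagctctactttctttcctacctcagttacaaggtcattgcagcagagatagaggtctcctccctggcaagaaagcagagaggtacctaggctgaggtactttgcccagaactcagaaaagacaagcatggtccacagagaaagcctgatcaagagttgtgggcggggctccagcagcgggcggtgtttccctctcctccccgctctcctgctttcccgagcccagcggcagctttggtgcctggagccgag
Tlr2: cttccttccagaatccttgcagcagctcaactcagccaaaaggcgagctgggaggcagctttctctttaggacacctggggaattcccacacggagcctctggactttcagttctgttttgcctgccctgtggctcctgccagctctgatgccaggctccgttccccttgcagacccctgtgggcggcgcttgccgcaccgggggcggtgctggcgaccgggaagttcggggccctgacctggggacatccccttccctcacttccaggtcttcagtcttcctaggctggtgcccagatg
Tlr8: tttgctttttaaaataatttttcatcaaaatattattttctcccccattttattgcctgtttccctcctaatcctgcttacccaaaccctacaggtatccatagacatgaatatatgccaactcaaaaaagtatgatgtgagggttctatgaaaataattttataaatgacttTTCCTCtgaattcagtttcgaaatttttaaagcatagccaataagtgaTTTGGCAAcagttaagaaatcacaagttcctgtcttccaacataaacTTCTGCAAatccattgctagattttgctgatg
Tlr13: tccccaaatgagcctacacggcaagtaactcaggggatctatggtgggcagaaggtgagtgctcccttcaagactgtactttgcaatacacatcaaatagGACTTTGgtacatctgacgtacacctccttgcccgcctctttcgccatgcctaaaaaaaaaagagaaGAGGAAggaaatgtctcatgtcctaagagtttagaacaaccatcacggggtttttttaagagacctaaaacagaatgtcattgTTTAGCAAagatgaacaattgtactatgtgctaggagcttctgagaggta
Tlr9: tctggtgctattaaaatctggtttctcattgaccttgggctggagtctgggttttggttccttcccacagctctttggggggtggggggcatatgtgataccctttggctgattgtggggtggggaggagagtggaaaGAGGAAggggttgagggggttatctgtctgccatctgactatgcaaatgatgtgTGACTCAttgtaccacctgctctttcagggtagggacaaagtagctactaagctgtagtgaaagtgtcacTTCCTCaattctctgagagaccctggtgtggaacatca
6 motifs were searched on both strands, each in 1 spelling only. GAGGAA, the core bound by the myeloid and B cell factor PU.1 and other ETS proteins, was in the windows of Tlr8, Tlr13, Tlr9 and 1 of the 2 Tlr1 windows, that is in 4 of 10 member windows, and in 28.3% of all 32851 windows. It was not in the windows of Tlr2 and Tlr6, which also passed with the leukocyte mean, while Tlr1 did not pass. The C/EBP spelling TTGCNNAA was in 4 of 10, those of Tlr8, Tlr13, Tlr3 and 1 of Tlr6, against 10.8% of all windows. The AP-1 spelling TGANTCA was found in Tlr9 (7.81% of all windows) and CAAAGTC, a core of the epithelial factor HNF4A, in Tlr13 (4.44%). The 1 NF-kB spelling searched, a narrow one, was in Tlr3 (0.411%). The spelling of the interferon-stimulated response element was in 1 Tlr6 window (3.44%), where 2 matches overlap. None of these exact spellings were in the printed windows of Tlr2 and Tlr5, which may still hold other spellings of the same motifs. Whether Tlr2 or another receptor besides Tlr3 has an NF-kB motif was therefore not decided, because its other spellings were not searched. These spellings were chosen after others had been looked at, and a match describes letters, not binding.

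In untreated colitis against untreated healthy mice, 7 of the 10 receptors rose and Tlr5 fell. This compares with 26.1% of all tested genes that changed in this comparison, 11.7% higher and 14.4% lower (limma, Benjamini-Hochberg adjusted p under 0.05 over 16739 genes). The median log2 change of the 10 was 0.61, against -0.03 over all tested genes. Groups did not overlap for Tlr2, Tlr3 and Tlr5, 3 of 10, which is close to the 24.6% of all tested genes with no overlap in this comparison.

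Among the receptors of bacterial lipids, Tlr2, the shared partner of the lipopeptide receptors, changed most. Its level was 7.40, 7.67, 8.06 and 7.64 in untreated colitis mice 5, 6, 7 and 10, against 6.85, 6.89, 6.88 and 6.83 in untreated healthy mice 2, 4, 6 and 7. Every colitis mouse was above every healthy mouse, by a log2 change of 0.83 ± 0.15 (SE), a 1.78-fold rise (limma adjusted p = 0.000582). Tlr6, which pairs with Tlr2 for diacylated lipopeptides, had 6.46, 5.98, 6.62 and 6.46 in untreated colitis mice, against 5.97, 6.08, 5.43 and 6.03 in untreated healthy mice. These groups overlapped, because colitis mouse 6 lay within the healthy range, and the change of 0.50 ± 0.16 (limma adjusted p = 0.0233) dropped to 0.35 (limma adjusted p = 0.0955) without healthy mouse 6. The call was also lost without colitis mouse 5, 7 or 10. Tlr1, the partner for triacylated lipopeptides and the neighbour of Tlr6 on chromosome 5, stayed between 10.03 and 10.35 on all 20 arrays. It averaged 10.15 ± 0.11 in untreated colitis and 10.30 ± 0.05 in untreated healthy mice (SD, n = 4 each), and the change of -0.15 (95% interval -0.29 to -0.01) did not pass (limma adjusted p = 0.113), although with array weights it did (-0.18, limma adjusted p = 0.0452). Tlr4, the lipopolysaccharide receptor, averaged 8.32 ± 0.20 in untreated colitis and 8.10 ± 0.16 in untreated healthy mice (SD, n = 4 each). Its change of 0.22 (95% interval -0.02 to 0.45) did not pass either (limma adjusted p = 0.164), but without untreated colitis mouse 5 it did (0.32, limma adjusted p = 0.0432).

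Tlr5, the flagellin receptor, was the 1 receptor that was lower. It measured 7.68, 7.47, 7.72 and 7.61 in untreated colitis mice 5, 6, 7 and 10, against 8.19, 8.41, 8.11 and 8.17 in untreated healthy mice 2, 4, 6 and 7. The highest colitis mouse lay below the lowest healthy mouse, and the log2 change was -0.60 ± 0.09, a 1.51-fold fall with the smallest adjusted p of the 10 receptors in this comparison (limma adjusted p = 0.000152). Each array left out and every other setting tried kept this change between -0.64 and -0.54. In the same comparison 7 of 12 colonocyte markers fell and 1 rose (median log2 change -0.90), and 4 of 18 pan-epithelial markers fell (median -0.09). Of all tested genes 14.4% fell and 11.7% rose.

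Of the endosomal receptors, Tlr3 had the tightest groups. It was at 9.44, 9.57, 9.55 and 9.76 in untreated colitis mice, against 9.10, 9.14, 9.43 and 9.30 in untreated healthy mice. The lowest colitis value was only just above the highest healthy one, and the change was 0.33 ± 0.09 (limma adjusted p = 0.0106), or 0.29 without the 3 arrays that stand apart (limma adjusted p = 0.0504). The other 4 had wide colitis groups. Tlr7 was at 7.03, 5.29, 6.87 and 6.09 in untreated colitis mice 5, 6, 7 and 10, against 5.24, 5.60, 5.70 and 5.55 in untreated healthy mice. Colitis mouse 6 was among the healthy mice, and the change was 0.80 ± 0.27 (limma adjusted p = 0.0323). Tlr8, its neighbour on chromosome X, was at 6.21, 5.38, 7.68 and 6.33 in untreated colitis mice, against 5.10, 5.52, 5.56 and 5.36 in untreated healthy mice. Mouse 7 was highest and mouse 6 again within the healthy range, with a change of 1.01 ± 0.34 (limma adjusted p = 0.0327). Tlr13 was at 6.79, 6.14, 7.94 and 6.94 in untreated colitis mice, against 5.69, 6.31, 6.34 and 5.91 in untreated healthy mice, the same order of colitis mice as for Tlr8. Its change was 0.89 ± 0.29 (limma adjusted p = 0.0304). Tlr9 was at 8.39, 6.97, 7.52 and 7.62 in untreated colitis mice, against 7.11, 6.71, 7.01 and 6.83 in untreated healthy mice. Here mouse 5, not mouse 7, was highest, and the change was 0.71 ± 0.23 (limma adjusted p = 0.0299).

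Each of these 4 calls was lost without any 1 of 4 or 5 single mice of either group. For Tlr7 these were colitis mice 5 and 7 and healthy mice 2, 4 and 7. For Tlr8 and Tlr13 they were colitis mice 7 and 10 and healthy mice 2 and 7, and for Tlr9 colitis mice 5 and 10 and healthy mice 4 and 7. Without untreated colitis mouse 7 the changes were 0.59 for Tlr8 and 0.56 for Tlr13 (limma adjusted p = 0.125 and 0.123). Without untreated colitis mouse 5 they were 0.56 for Tlr7 and 0.46 for Tlr9 (limma adjusted p = 0.127 and 0.121). The pan-leukocyte mean of the 4 mice was 9.32 in mouse 5, 7.91 in mouse 6, 8.87 in mouse 7 and 8.45 in mouse 10, so the mouse in which all 4 receptors were lowest was also lowest in leukocyte markers. In the whole comparison, where 11.7% of all tested genes rose, 16 of 16 pan-leukocyte markers rose (median log2 change 1.33). So did 9 of 14 macrophage, 8 of 10 neutrophil and 9 of 9 B cell markers. T cell markers averaged 6.85 in untreated colitis and 6.11 in untreated healthy mice, and dendritic cell markers 6.27 and 6.08. The part of all these cell types in the receptor changes was not tested.

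**Figure D1:**
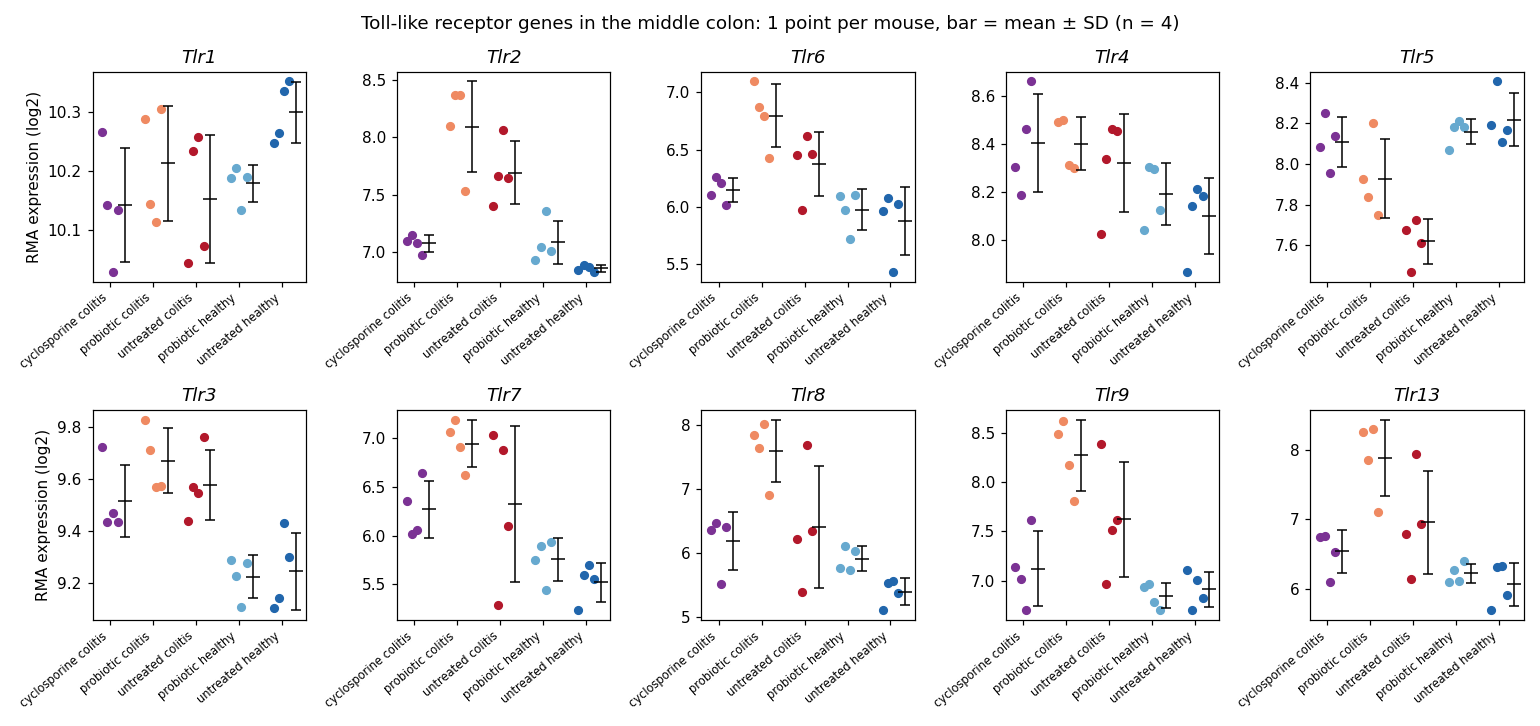
Log2 expression of the 10 receptors (vertical axes) in the 5 groups (horizontal axes), 1 point per mouse, with the mean ± SD of 4 mice as a black bar beside the points. Tlr2 in untreated colitis mice lies between 7.40 and 8.06, above all untreated healthy mice, Tlr5 in untreated colitis mice lies at 7.72 or below, and Tlr1 stays between 10.03 and 10.35 throughout.

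In probiotic colitis against probiotic healthy mice the same 7 receptors rose and none fell, where 29.7% of all tested genes changed (13.6% higher, 16.1% lower). The groups did not overlap for any of the 7, all higher, against 13.8% of all tested genes that were higher with no overlap. Tlr8 measured 7.84, 7.63, 8.004 and 6.90 in probiotic colitis mice 3, 5, 7 and 8, against 5.75, 6.11, 5.73 and 6.03 in probiotic healthy mice 4, 5, 6 and 7. That is a log2 change of 1.69 ± 0.34, or 3.22-fold (limma adjusted p = 0.000813), with mouse 8 lowest of the colitis mice. Tlr13 measured 8.26, 7.85, 8.30 and 7.11 in probiotic colitis mice, against 6.10, 6.28, 6.11 and 6.40 in probiotic healthy mice. The order was again that of Tlr8, and the rise was 3.15-fold (1.66 ± 0.29, limma adjusted p = 0.000263). Tlr9 measured 8.49, 8.62, 8.17 and 7.81 in probiotic colitis mice, against 6.94, 6.97, 6.78 and 6.70 in probiotic healthy mice, a 2.68-fold rise (1.42 ± 0.23, limma adjusted p = 0.000131). Tlr2 measured 8.10, 8.37, 8.37 and 7.53 in probiotic colitis mice, against 6.93, 7.05, 7.36 and 7.01 in probiotic healthy mice, a 2.01-fold rise (1.00 ± 0.15, limma adjusted p = 6.23e-05). Mouse 8 was the lowest of the colitis mice for all 4 of these genes, and its pan-leukocyte mean of 8.83 was below the 9.43 to 9.49 of the other 3. Tlr7, Tlr6 and Tlr3 rose by 1.18, 0.82 and 0.45 (limma adjusted p = 0.00209, 0.000497 and 0.000924).

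Tlr5 measured 7.93, 7.84, 8.20 and 7.75 in probiotic colitis mice, against 8.07, 8.18, 8.21 and 8.18 in probiotic healthy mice. Mouse 7 lay in the healthy range, and the change of -0.23 (95% interval -0.43 to -0.04) did not pass (limma adjusted p = 0.0671), whereas without that mouse it was -0.32 (limma adjusted p = 0.00998). It also passed with quantile normalization again (-0.26) and with array weights (-0.21). Tlr4 averaged 8.40 ± 0.11 in probiotic colitis and 8.19 ± 0.13 in probiotic healthy mice (SD, n = 4 each). Its change of 0.21 (limma adjusted p = 0.175) was close to the 0.22 under saline, and it passed with array weights (0.25, limma adjusted p = 0.0428). Tlr1 averaged 10.21 ± 0.10 in probiotic colitis and 10.18 ± 0.03 in probiotic healthy mice (SD, n = 4 each), a change of 0.03 (95% interval -0.11 to 0.17).

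Whether colitis changed a receptor differently with and without the probiotic was tested as an interaction. None of the 10 passed, nor did any other gene (0% of 16739 called, 1446 at an unadjusted p under 0.05). The difference was 0.37 ± 0.13 for Tlr5 (unadjusted p = 0.0116, limma adjusted p = 0.491) and 0.71 ± 0.33 for Tlr9 (limma adjusted p = 0.565). For 9 of the 10 the colitis change was more positive, or less negative, with the probiotic, the exception being Tlr4 at -0.01. The median difference over all tested genes was 0.002. Some receptors varied together, Tlr8 and Tlr13 at r = 0.96 of deviations from group means, so these signs are not separate observations.

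Under cyclosporine the receptors parted. In cyclosporine colitis against untreated colitis mice, Tlr2 fell and Tlr5 rose while the other 8 did not pass, where 13.2% of all tested genes changed (7.58% higher, 5.58% lower). As a count, 2 of 10 is close to that background, and it is the sizes of these changes that are given here. Tlr2 was at 7.10, 7.15, 7.08 and 6.98 in cyclosporine colitis mice 4, 7, 9 and 10, against 7.40, 7.67, 8.06 and 7.64 in untreated colitis mice. The groups did not overlap, and the change was -0.62 ± 0.15, a 1.53-fold fall (limma adjusted p = 0.0120). Tlr5 was at 8.09, 8.25, 7.96 and 8.14 in cyclosporine colitis mice, against 7.68, 7.47, 7.72 and 7.61 in untreated colitis mice. Every cyclosporine mouse was above every untreated colitis mouse, by 0.49 ± 0.09 or 1.40-fold (limma adjusted p = 0.00218). Groups without overlap were seen in 15.0% of all tested genes. Both calls held under every setting and with each array left out. Pan-leukocyte markers fell in 8 of 16 cases (median log2 change -0.78), and 7 of 12 colonocyte markers rose while 1 fell (median 0.55), Slc26a3, the chloride exchanger of surface colonocytes, among those that rose. Of 18 pan-epithelial markers none passed in either direction.

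No endosomal receptor passed here. Tlr9 averaged 7.12 ± 0.38 in cyclosporine colitis and 7.62 ± 0.58 in untreated colitis mice (SD, n = 4 each), a change of -0.50 (95% interval -0.99 to -0.01, limma adjusted p = 0.165). Without the 3 arrays that stand apart, Tlr9 (-0.72, limma adjusted p = 0.0208) and Tlr13 (-0.69, limma adjusted p = 0.0437) passed as well as Tlr2 and Tlr5. With 1 array left out the change of Tlr9 came as near to 0 as -0.25, without untreated colitis mouse 5, and that of Tlr13 as -0.09, without untreated colitis mouse 7. Tlr7 was at 6.35, 6.02, 6.06 and 6.64 in cyclosporine colitis mice, within the untreated colitis range of 5.29 to 7.03. Its change of -0.05 had an interval from -0.61 to 0.50. Tlr3 changed by -0.06 (95% interval -0.25 to 0.13) and Tlr4 by 0.08 (95% interval -0.15 to 0.32).

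Set against untreated healthy mice, none of the 10 receptors passed in cyclosporine colitis, where 6.02% of all tested genes changed (2.64% higher, 3.38% lower), and 5 receptors had an unadjusted p under 0.05. Tlr5 averaged 8.11 ± 0.12 in cyclosporine colitis and 8.22 ± 0.13 in untreated healthy mice (SD, n = 4 each), a change of -0.11 (95% interval -0.30 to 0.08). Tlr2 was above the healthy mice in each cyclosporine mouse, but by only 0.22 (95% interval -0.10 to 0.53, limma adjusted p = 0.405). Tlr3 and Tlr7 likewise had groups that did not overlap, with changes of 0.27 (limma adjusted p = 0.0783) and 0.74 (limma adjusted p = 0.0961). Tlr7 passed when these 2 groups were fitted alone and when untreated colitis mouse 6 was left out. Of all tested genes 6.55% were higher here with no overlap. The comparison shares its healthy mice with that of untreated colitis and its cyclosporine mice with that above.

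In cyclosporine colitis against probiotic colitis mice, 5 receptors fell and none rose, where 23.2% of all tested genes changed (11.3% higher, 12.0% lower). The 5 were Tlr2, Tlr6, Tlr8, Tlr9 and Tlr13, and for none of them did the groups overlap, against 11.1% of all tested genes that were lower with no overlap. Tlr8 was at 6.36, 6.46, 5.51 and 6.40 in cyclosporine colitis mice, against 7.84, 7.63, 8.004 and 6.90 in probiotic colitis mice, a 2.67-fold fall (-1.41 ± 0.34, limma adjusted p = 0.00522). Tlr13 was at 6.75, 6.76, 6.11 and 6.54 in cyclosporine colitis mice, against 8.26, 7.85, 8.30 and 7.11 in probiotic colitis mice, a 2.54-fold fall (-1.34 ± 0.29, limma adjusted p = 0.00276). Tlr9 fell 2.22-fold and Tlr2 2.02-fold (limma adjusted p = 0.00167 and 0.000191), and Tlr6 fell 1.57-fold (limma adjusted p = 0.00545). Tlr7 missed the threshold with -0.67 (95% interval -1.23 to -0.12, limma adjusted p = 0.0758), and passed without the 3 arrays that stand apart (-0.78, limma adjusted p = 0.00491), without any 1 of probiotic colitis mouse 8 and untreated colitis mice 5 and 6, with array weights, and in these 2 groups alone. Tlr5 was 0.18 higher (95% interval -0.01 to 0.37) and did not pass, but without probiotic colitis mouse 7 it did (0.27, limma adjusted p = 0.0380). All 16 pan-leukocyte and 9 of 9 B cell markers fell in this comparison, and 9 of 12 colonocyte markers rose.

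The probiotic against saline showed no called receptor in either setting. In probiotic colitis against untreated colitis mice 2.80% of all tested genes changed (2.13% higher, 0.669% lower). All 10 receptors had a log2 change above 0, from 0.06 for Tlr1 to 1.19 for Tlr8 (median 0.41, against -0.02 over all tested genes). Tlr8 was at 7.84, 7.63, 8.004 and 6.90 in probiotic colitis mice, against 6.21, 5.38, 7.68 and 6.33 in untreated colitis mice, so untreated mouse 7 reached into the probiotic group (1.19 ± 0.34, limma adjusted p = 0.0624). Tlr5 did not overlap between the groups, the lowest probiotic mouse at 7.75 being just above the highest untreated mouse at 7.72, and 3.63% of all tested genes were higher with no overlap (0.31 ± 0.09, limma adjusted p = 0.0759). These misses depend on single arrays: without probiotic colitis mouse 8, 6 receptors passed, without untreated colitis mouse 7, 2 did, without untreated colitis mouse 5, Tlr9 did, without all 3 arrays that stand apart Tlr2 and Tlr13 did, and with array weights 7 did. Macrophage markers rose in 12 of 14 cases here (median 0.97) and pan-leukocyte markers in 2 of 16 (median 0.66). In probiotic healthy against untreated healthy mice no gene was called (0% of 16739, 1511 at an unadjusted p under 0.05), and the receptors' changes ran from -0.12 for Tlr1 to 0.52 for Tlr8.

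**Figure D2:**
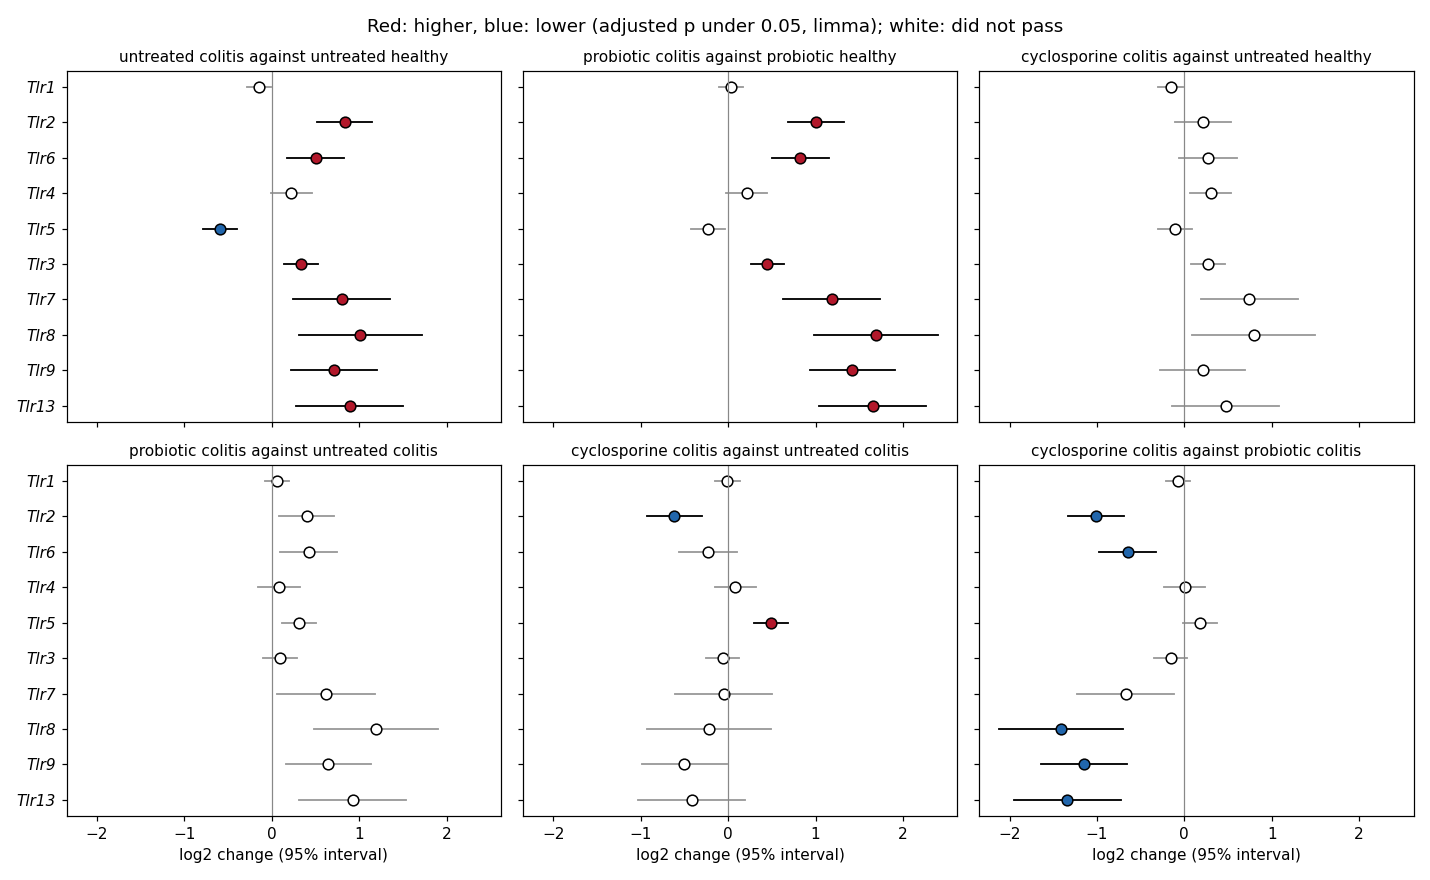
Log2 change (horizontal axis) of the 10 receptors (vertical axis) in 6 comparisons, with 95% intervals from limma; red points rose and blue points fell at an adjusted p under 0.05, white points did not pass. Tlr5 is blue in untreated colitis against untreated healthy mice (-0.60) and red in cyclosporine colitis against untreated colitis mice (0.49), where Tlr2 is blue (-0.62).

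Whether receptors followed leukocytes or epithelium was asked with correlations over the 12 colitis arrays, 10 receptors against the pan-leukocyte and the pan-epithelial marker mean (20 relations, permutation p adjusted over the 20). No receptor is among the markers. The permutation did not keep to the colitis groups, so its p also takes in differences between them. With the leukocyte mean 6 of 10 receptors passed. Of all 16723 other tested genes (the markers left out), 7.69% had an r at or above that of the weakest of these 6. Tlr9 was closest, with Pearson r = 0.96 (adjusted permutation p = 0.0006) and Spearman rho = 0.92 (adjusted permutation p = 0.0016). Tlr7 had r = 0.84 and rho = 0.89 (adjusted permutation p = 0.0054 and 0.0031), and Tlr6 had r = 0.83 and rho = 0.82 (adjusted permutation p = 0.00607 and 0.010). Tlr13 had r = 0.82 and rho = 0.85 (adjusted permutation p = 0.0080 and 0.00733). Tlr8 had r = 0.79 and rho = 0.66, of which only r passed (adjusted permutation p = 0.00971 and 0.0567), and Tlr2 had r = 0.77 and rho = 0.80 (adjusted permutation p = 0.0147 and 0.0133). Without the 2 arrays farthest from the median leukocyte mean, r was 0.95 for Tlr9, 0.83 for Tlr7, 0.88 for Tlr6, 0.78 for Tlr13, 0.76 for Tlr8 and 0.69 for Tlr2, and Tlr6, Tlr7 and Tlr9 still passed. Tlr3 (r = 0.31), Tlr1 (0.09), Tlr4 (-0.01) and Tlr5 (-0.11) did not pass.

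The epithelial mean ran only from 10.58 to 10.91 on these 12 arrays, so a miss says little. No receptor passed upwards with this mean, r being 0.31 for Tlr4, 0.11 for Tlr1 and 0.04 for Tlr3, and the others were negative. Tlr7 and Tlr9 ran against it, 2 of 10 receptors where 1.51% of the other tested genes were at or below the weaker of them, with r = -0.81 and rho = -0.73 for Tlr7 (adjusted permutation p = 0.0062 and 0.0273) and r = -0.79 and rho = -0.76 for Tlr9 (adjusted permutation p = 0.00927 and 0.0201). Without the 2 arrays farthest from its median these were -0.59 and -0.66, and neither passed. The epithelial and leukocyte means were themselves related at r = -0.73 over these arrays, so the relations are not separate. Tlr5, which fell in untreated colitis, had r = -0.37 with the epithelial mean (adjusted permutation p = 0.385). Over the 8 healthy arrays 0 of 20 relations passed by r (exact permutation over 40320 pairings) and 1 by rho. This was Tlr8 with the epithelial mean, at rho = -0.93 (adjusted exact permutation p = 0.0446) and r = -0.87 (adjusted exact permutation p = 0.110). The healthy groups did not overlap in Tlr8 or in this mean, and the permutation did not keep to groups. The p therefore also takes in the difference between the groups. Without the 2 arrays farthest from the median of this mean, r was -0.68.

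The colitis groups differ in their leukocyte mean, so deviations from the group means were taken as well. Within the colitis groups Tlr7 and Tlr9 kept their relation to the leukocyte mean (r = 0.93 each, adjusted exact permutation p = 0.00868 and 0.0101 over 13824 within-group orders). For the other 4 receptors called above, r was 0.61 for Tlr8, 0.57 for Tlr13, 0.55 for Tlr6 and 0.18 for Tlr2, and none passed. With the epithelial mean no receptor passed.

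**Figure D3:**
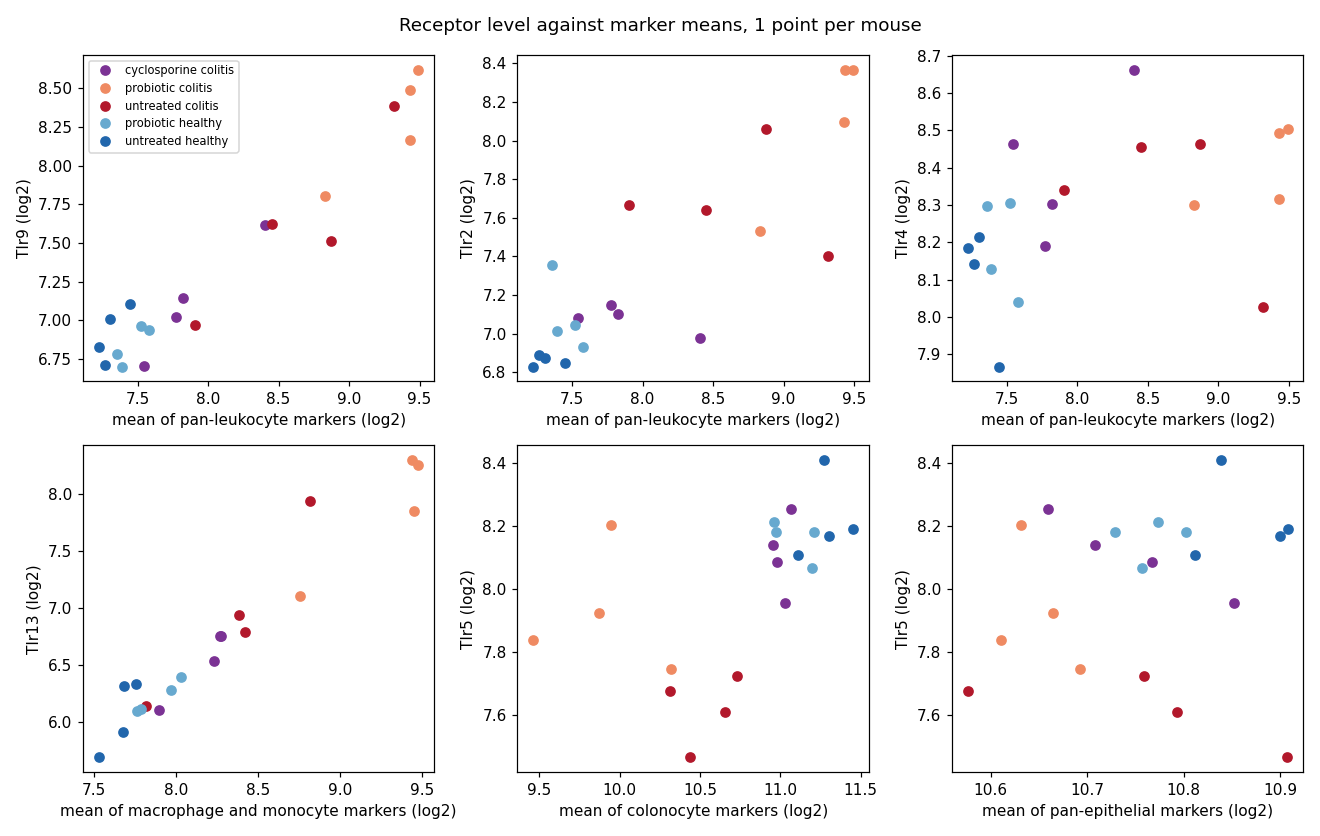
Receptor level (vertical axes, log2) against the mean of a marker list (horizontal axes, log2), 1 point per mouse and 1 colour per group. Tlr9 climbs with the pan-leukocyte mean across the 12 colitis mice (r = 0.96), Tlr4 does not (r = -0.01), and Tlr5 in untreated colitis mice lies at 7.72 or below while their pan-epithelial mean spans 10.58 to 10.91.

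Deviations over all 20 arrays show, as a description, which marker lists each receptor varied with. All 20 arrays enter every value, and the lists rise and fall together to a degree. Tlr8 and Tlr13 had r = 0.93 each with the macrophage mean and 0.84 and 0.85 with the neutrophil mean, but 0.19 and 0.09 with the B cell mean. Tlr9 was the reverse, with 0.92 for pan-leukocyte, 0.90 for T cell, 0.87 for B cell and 0.54 for macrophage markers. Tlr7 had its highest r with pan-leukocyte markers (0.86), then 0.85 with endothelial, 0.79 with fibroblast and 0.76 with macrophage markers. With T cell and B cell markers it had 0.71 and 0.62. Stromal lists were not particular to Tlr7. With fibroblast markers Tlr8, Tlr13 and Tlr9 had 0.67, 0.65 and 0.63, and with endothelial markers 0.57, 0.54 and 0.63. Tlr2 was nearest to the neutrophil mean (0.69), as was Tlr6 (0.63). Tlr5 had 0.61 with the macrophage mean, -0.01 with the colonocyte mean and -0.48 with the pan-epithelial mean. Its group means can be set beside the colonocyte means. The colonocyte mean was 11.01 in cyclosporine colitis, 9.90 in probiotic colitis, 10.53 in untreated colitis, 11.09 in probiotic healthy and 11.28 in untreated healthy mice, while Tlr5 averaged 8.11, 7.93, 7.62, 8.16 and 8.22 in the same groups. Probiotic colitis mice had the lowest colonocyte mean, and untreated colitis mice the lowest Tlr5. Tlr3 had no r beyond 0.32 with any list and Tlr4 none beyond 0.33 in size. Tlr1 reached at most 0.30 upwards, with colonocyte markers, and -0.45 with dendritic cell markers.

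**Figure D4:**
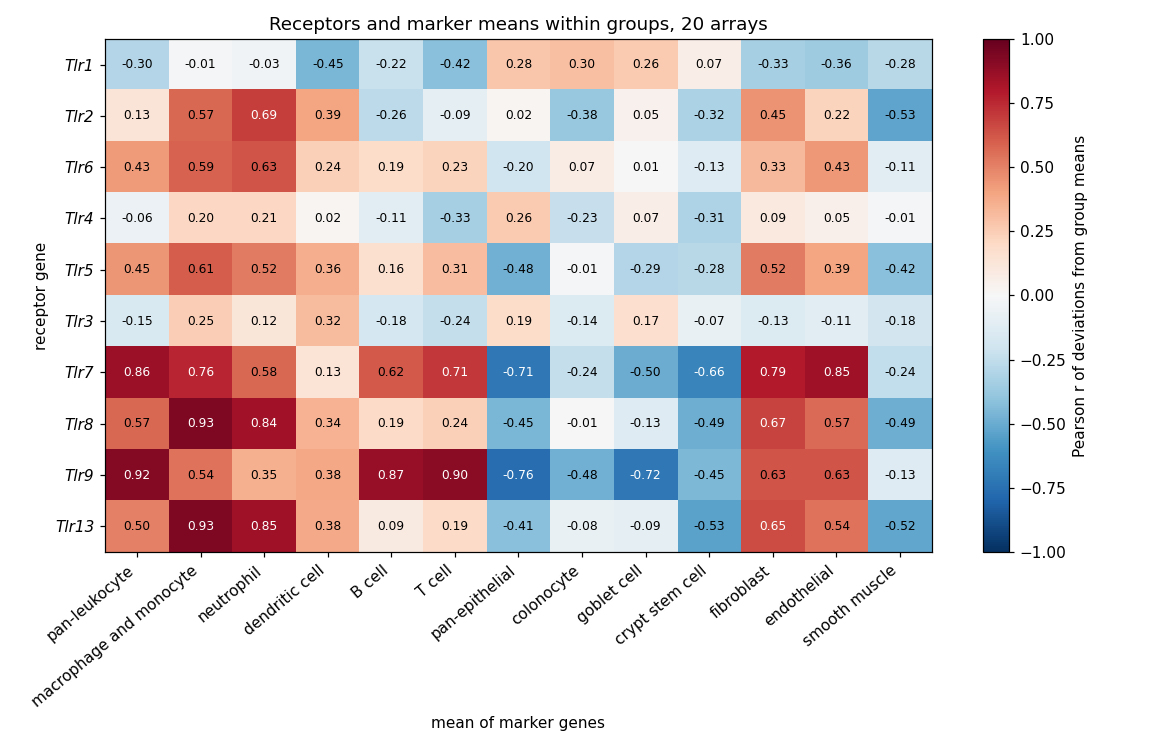
Pearson r, printed and coloured from -1 to 1, of each receptor (rows) with the mean of each marker list (columns), both as deviations from group means over 20 arrays. Tlr8 and Tlr13 are strongest with macrophage markers (0.93 each), Tlr9 is at 0.92 with pan-leukocyte and 0.90 with T cell markers, and Tlr5 is at -0.01 with colonocyte markers.

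Among the receptors themselves Tlr8 and Tlr13 varied most alike (r = 0.96 of deviations), followed by Tlr7 and Tlr9 (0.73). Tlr8 and its neighbour Tlr7 were at 0.68, while the neighbours Tlr1 and Tlr6 were at -0.19. Over all tested genes, the 3 most like Tlr8 were Cd33 (0.97), a myeloid sialic acid receptor, Tlr13 (0.96) and Ms4a4a (0.95). Tlr13 was most like Tlr8 (0.96), Wfdc21 (0.95) and Igsf6 (0.93). Tlr9 was most like Gimap4 (0.95) and Gimap5 (0.94), GTPases of lymphocytes, and Ccr7 (0.94), the receptor that guides lymphocytes and dendritic cells to lymph nodes. Tlr7 was most like Dcn (0.92), which encodes the matrix proteoglycan decorin, Cd84 (0.91) and Fli1 (0.91), an ETS factor of blood and endothelial cells. Tlr2 was most like Rnf19b (0.85), Nlrp3 (0.83), an inflammasome sensor, and Fbxl5 (0.83). Tlr6 was most like Tfec (0.84), Rrm2 (0.81), a subunit of ribonucleotide reductase, and Emb (0.81). Tlr5 was most like Fam83a (0.85), Ntpcr (0.82) and Bmpr2 (0.80), a receptor of bone morphogenetic proteins. Tlr3 was most like Tmem150b (0.82), Ptprh (0.77) and Pcdh1 (0.73), Tlr4 like Mprip (0.83), Nktr (0.77) and Rdh16f2 (0.77), and Tlr1 like Yipf1 (0.81), Prkcz (0.79) and Gfpt1 (0.78). These are the highest of 16739 genes in each case and were picked for their r.

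Receptors need partner proteins to fold, reach their compartment or bind. In untreated colitis against untreated healthy mice 5 of 9 co-receptors and chaperones rose and 1 fell (median log2 change 0.56). Of all tested genes 11.7% rose and 14.4% fell. Hsp90b1, the chaperone that folds Toll-like receptors, rose by 0.55 ± 0.07 (limma adjusted p = 1.68e-05). Unc93b1, which carries the endosomal receptors to their compartment, rose by 0.65 ± 0.14 (limma adjusted p = 0.00163). Cd180, a related receptor of B cells and macrophages, and its partner Ly86 rose by 1.54 and 1.55 (limma adjusted p = 0.00261 and 0.000198). In probiotic colitis against untreated colitis mice, Unc93b1 and Ly86 were higher by 0.57 and 0.93 (limma adjusted p = 0.0330 and 0.0494), although no receptor among the 10 passed. Of these 9, 2 rose and 3 fell in cyclosporine colitis against untreated colitis mice, where 7.58% of all tested genes rose and 5.58% fell. Ly96, the partner of Tlr4 in binding lipopolysaccharide, averaged 10.63 in cyclosporine colitis and 9.85 in untreated colitis mice (0.78 ± 0.17, limma adjusted p = 0.00628). Cd14, which hands lipopolysaccharide to them, averaged 8.26 in cyclosporine colitis and 9.27 in untreated colitis mice (-1.01 ± 0.25, limma adjusted p = 0.0132). Cd36, a scavenger receptor and partner of Tlr2 with Tlr6, was 1.26 higher and Hsp90b1 0.30 lower (limma adjusted p = 0.00707 and 0.00618). Of the lipopolysaccharide receptor complex, Ly96 rose, Cd14 fell and Tlr4 did not pass.

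Downstream, counts are given for untreated colitis against untreated healthy mice first. In this comparison 11.7% of all tested genes rose and 14.4% fell, so 1 lower gene of 10 is near that share. None of 5 adaptors passed. In probiotic colitis against probiotic healthy mice, where 13.6% of all tested genes rose and 16.1% fell, 2 of the 5 rose and 1 fell. Myd88 was up by 0.47 ± 0.15 there (limma adjusted p = 0.0232). Of 10 kinases and ligases 3 rose and 1 fell, with Tbk1, a kinase of the interferon branch, up by 0.25 and Irak2 down by 0.35. Of 6 transcription factors 4 rose, led by the NF-kB subunit Rel (1.52 ± 0.23, limma adjusted p = 0.000132). Of 10 inhibitors and other regulators of the pathway 6 rose. Among them were Zc3h12a, an RNase that degrades cytokine mRNA (0.82 ± 0.11, limma adjusted p = 4.42e-05), Nfkbiz (0.96 ± 0.17) and Irak3 (0.79 ± 0.19). Of 12 target cytokines and enzymes 8 rose. The largest rises were in Il1b (3.51 ± 0.71, limma adjusted p = 0.00135) and Nos2, the inducible nitric oxide synthase (3.44 ± 0.43, limma adjusted p = 2.41e-05). Under cyclosporine, against untreated colitis mice, 7.58% of all tested genes rose and 5.58% fell. Here 0 of the 6 transcription factors rose and 3 fell, 4 of the 10 regulators fell and 3 of 12 targets fell. Those targets were Nos2 (-2.60 ± 0.43, limma adjusted p = 0.000841), Tnf (-1.23 ± 0.24, limma adjusted p = 0.00248) and Il1b (-2.49 ± 0.71, limma adjusted p = 0.0262). In cyclosporine colitis against probiotic colitis mice 6 of 9 co-receptors and chaperones and 3 of 6 transcription factors fell. So did 6 of the 10 regulators and 6 of 12 targets. Of all tested genes 12.0% fell in this comparison. The remaining family members on the array, Tlr11 and Tlr12, passed the filter and had low group means, between 5.44 and 6.26. Some group means of Tlr6, Tlr7, Tlr8 and Tlr13 lay in the same range. Both rose in probiotic colitis against probiotic healthy mice (0.38 and 0.63), and Tlr12 rose by 0.57 in probiotic colitis against untreated colitis mice (limma adjusted p = 0.0290).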

How the data were processed

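Expression was measured on 20 Affymetrix arrays of middle colon RNA, 1 per mouse. The deposited log2 values per probe set were made by the authors with RMA, per the submitters' processing notes, and the sources used here give neither its version nor the annotation. They were used without further normalization. Of 41801 probe sets 29195 had values. Probe sets over a value of 5.30 (percentile 25 of all named ones) on 4 or more arrays were tested, and the brightest on average stood for its gene, which left 16739 genes. Means of 5 groups were fitted over all 20 arrays in R 4.3.3 with limma 3.58.1 (lmFit, eBayes), and genes were called at a Benjamini-Hochberg adjusted p under 0.05 within a comparison. Tests are two-sided. Animal numbers name mice within a group and paired no samples. Replicates are biological per the labels, and cages held 5 mice, with no cage given for a mouse.

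Permutation tests used 100000 resamples over 12 arrays. The fit and the correlations were tested on simulated data. The receptors, marker lists and pathway lists were chosen with earlier results of these data known. The rule for names takes all receptors, up to 4 genes with the smallest p per list and comparison, and the 3 genes most like each receptor, leaving out predicted genes, noncoding series and receptor segments. The alternatives tried were no filter or a stricter one, quantile normalization again, median centring, trend and robust eBayes, array weights, averaged probe sets, a block for animal number, leaving out each array or 3 arrays together, and fitting the compared groups alone. For correlations, macrophage and colonocyte means, deviations from group means and leaving out the 2 farthest arrays were tried. Arrays carry no read depth, so their number and the signal over background limit the precision.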

Additional observations from a re-analysis of the deposited data

Results flagged for a closer look

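In groups of 4 mice, a mouse was singled out when its gap to the nearest other mouse, as a share of the group's range, exceeded Dixon's critical value at 95%. Of 70 groups looked at 6 met this, and chance gives about 1 in 20. Tlr3 was at 9.724 in cyclosporine colitis mouse 4, with the other 3 between 9.433 and 9.469. Tlr8 was at 5.505 in cyclosporine colitis mouse 9, against 6.355 to 6.456 in the others, and the macrophage marker mean of the same mouse was 7.895, against 8.23 to 8.27. Tlr6 was at 5.433 in untreated healthy mouse 6, against 5.968 to 6.076. In probiotic colitis mouse 8 the pan-leukocyte mean was 8.831, against 9.43 to 9.49, and the macrophage marker mean was 8.756, against 9.44 to 9.48. Untreated colitis mouse 6 and untreated healthy mouse 2, which were left out together with it, were not singled out in any group looked at.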

How the results depend on the processing

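No called receptor changed sign under any alternative, and receptor counts not listed here stayed within 1.5 times their value. In untreated colitis against untreated healthy mice, the 8 called receptors became 3 with animal number as a replicate block (Tlr2, Tlr5, Tlr6), 3 with the compared groups alone (Tlr2, Tlr3, Tlr5), and 4 to 8 with 1 array left out. In cyclosporine colitis against untreated healthy mice, 0 became 1 (Tlr7) with the compared groups alone and 0 to 1 with 1 array left out. In probiotic colitis against untreated colitis mice, 0 became 7 with array weights, 2 without the 3 arrays that stand apart and 0 to 6 with 1 array left out. In cyclosporine colitis against untreated colitis mice, 2 became 4 without those 3 arrays. Under the replicate block Tlr8 no longer passed in cyclosporine colitis against probiotic colitis mice (-1.36, limma adjusted p = 0.0680), and Tlr6 passed in cyclosporine colitis against untreated colitis mice (-0.39, limma adjusted p = 0.0182). Same-numbered animals of other groups had a mean r of deviations of 0.03 over 20 pairs, 5 of them over 0.1. Pairs with other numbers had -0.005 over 140 pairs, 23 of them over 0.1. So few same-numbered pairs cannot exclude a pairing.

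Over all tested genes, array weights turned 468 calls into 1682 in probiotic against untreated colitis and 0 into 5 in the interaction. The replicate block gave 25 in place of 1008 in cyclosporine colitis against untreated healthy, 219 in place of 468 in probiotic against untreated colitis, 2100 in place of 3890 in cyclosporine against probiotic colitis, and 1 in the interaction. With the compared groups alone these were 539 in cyclosporine colitis against untreated healthy, 19 in probiotic against untreated healthy, 0 in probiotic against untreated colitis and 1119 in place of 2202 in cyclosporine against untreated colitis. Without the 3 arrays the interaction had 13. With 1 array left out the calls ran from 371 to 1231 in cyclosporine colitis against untreated healthy (371 without untreated healthy mouse 2), 71 to 1223 in probiotic against untreated colitis (71 without probiotic colitis mouse 5, 1223 without mouse 8), 1353 to 2627 in cyclosporine against untreated colitis and 0 to 45 in the interaction.

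Of the 6 receptors correlated with the leukocyte mean, 2 passed with deviations from the colitis group means and 3 without the 2 farthest arrays. Of the 2 correlated with the epithelial mean, 0 passed in either case, 1 to 4 with 1 array left out, and 4 (Tlr2, Tlr6, Tlr9 and Tlr13, all negative) with the colonocyte mean in its place. By r, 3 relations passed in the healthy arrays with macrophage and colonocyte means, against 0, and 0 to 1 with 1 array left out. These permutations did not keep to groups either. The macrophage mean was 7.89 in probiotic healthy and 7.66 in untreated healthy mice, and the colonocyte mean 11.09 and 11.28. The causes were not tested. The group means of Tlr7 and Tlr8 in untreated healthy mice, 5.52 and 5.39, lay near the filter level of 5.30, where background compresses changes.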
